A study of Rattus norvegicus with 6 samples.

Results

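The miR-181 family of RSC96 cells, an established rat Schwann cell line, was followed in small RNA libraries made after 48 h in high glucose (3 libraries) or in low glucose (3 libraries, the controls). The members were taken by name: every row of the count files whose hairpin, without its copy number, is rno-mir-181a, rno-mir-181b, rno-mir-181c or rno-mir-181d. Of these 4 names 3 were listed, on 5 hairpins (rno-mir-181a-1, rno-mir-181a-2, rno-mir-181b-1, rno-mir-181b-2 and rno-mir-181c) of 821 in the files. Counts were summed for each mature arm, the 5p arm lying before the middle of the hairpin and the 3p arm after it. This gave 5 arms of 932, of which 2, miR-181a-5p and miR-181b-5p, were among the 297 with enough counts to be tested. rno-mir-181d was not listed in any library.

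No transgene or deletion is named for either group, and the label text gives no glucose concentration. The series title speaks of exosomes, the labels name total RNA and do not say whether vesicles or whole cells were extracted, and the extraction text describes retina. RSC96 is 1 cell line, and the labels do not say whether the replicates were separate cultures. The p-values therefore rest on the spread between libraries, and that spread may be technical. In such bulk samples fewer cells of a type and less RNA per cell cannot be told apart.

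MicroRNAs are short RNAs that guide Argonaute proteins to messenger RNAs, mainly through the seed, the bases near the 5′ end of the mature strand. The miR-181 family is best known from mouse thymocytes, where miR-181a represses phosphatases and so raises the sensitivity of the T cell receptor. In mouse endothelium miR-181b restrains NF-kappaB signalling by repressing an importin that carries NF-kappaB into the nucleus, and in rodent astrocytes miR-181a represses pro-survival proteins of the BCL-2 family. In the rat gene table the hairpins lie in neighbouring pairs: Mir181a-1 beside Mir181b1, Mir181a2 beside Mir181b2, both overlapping the gene Nr6a1, and Mir181c beside Mir181d.

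The mature 5p sequences of the family from RefSeq (GRCr8) are shown first, because all 4 carry the same seed and differ only after it. The capitals mark the seed, bases 2 to 8 from the 5′ end.
miR-181a-5p: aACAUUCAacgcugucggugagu
miR-181b-5p: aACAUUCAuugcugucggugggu
miR-181c-5p: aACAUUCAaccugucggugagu
miR-181d-5p: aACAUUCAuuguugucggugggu
Counted from 1 at the 5′ end, with the base of miR-181a-5p first, miR-181b-5p differs from it by A9U, C10U and A21G, and miR-181d-5p by the same changes and C12U. miR-181c-5p is 22 nt long, 1 base shorter than miR-181a-5p and otherwise identical. The 3p arms that come from the other side of the hairpins fall into other seed groups, and miR-181a-1-3p and miR-181c-3p share theirs.
miR-181a-1-3p: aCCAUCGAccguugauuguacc
miR-181a-2-3p: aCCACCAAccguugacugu
miR-181c-3p: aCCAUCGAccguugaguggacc

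The hairpin rno-mir-181a-1 is given whole, as the files hold it, because it shows where the sequences described here lie. The first stretch in capitals, positions 15 to 37 of 100, is miR-181a-5p, and the second, positions 55 to 76, is miR-181a-1-3p.
rno-mir-181a-1: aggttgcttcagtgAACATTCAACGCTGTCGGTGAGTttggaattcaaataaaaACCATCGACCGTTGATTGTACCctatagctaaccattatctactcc

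The libraries differed strongly in depth. The high glucose libraries held 963706 to 1354456 counts and the low glucose libraries 114615 to 148143, a 9.31-fold difference of the means, so levels are given as CPM, counts scaled to a common library size with TMM. Sequences seen in fewer than 2 reads are not listed, and a value of 0 below means not listed. Of all 297 tested arms 41.4% were called higher and 22.6% lower in high glucose, and the small counts of markers called are to be read beside these shares. Of the markers set for other cells, the 5 leukocyte miRNAs, of which 3 were tested, with adjusted p from 0.436 to 0.654 in edgeR, summed to 40.1 to 239 CPM in high glucose and 90.5 to 143 CPM in low glucose, with miR-142-3p at 0. The 4 erythroid markers, with 2 lower of 2 tested, summed to 762 to 954 CPM in high glucose and 3237 to 6395 CPM in low glucose. Of the 3 glial miRNAs set down, miR-338-3p, miR-219a-5p and miR-138-5p, none was listed, and no miRNA alone defines Schwann cells. The other arm of miR-219a, miR-219a-3p, was not among the markers set. It was listed and did not pass (log2 fold change 0.68, adjusted p = 0.529 in edgeR). The neuronal markers had 2 higher and 1 lower of 4 tested and summed to 16657 to 22894 CPM in high glucose, against 7109 to 9279 CPM for the controls, and the hepatocyte markers had 2 higher of 2 tested and summed to 9192 to 15577 CPM in high glucose, against 3197 to 4693 CPM for the controls. Of the retinal markers 1 was tested and lower, and their sums were 57.2 to 72.8 CPM with high glucose and 48.7 to 89.6 CPM with low glucose. Whether RNA of other cells had a part in the miR-181 values was not tested.

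Both 5p members that could be tested were lower in high glucose. miR-181a-5p, the member tied to T cell receptor signalling, stood at 139, 118 and 166 CPM in the high glucose libraries and at 348, 348 and 555 CPM in the low glucose libraries. All 3 high glucose values lay below all 3 low glucose values. It averaged 141 ± 24.3 CPM with high glucose, against 417 ± 119.5 CPM with low glucose (SD, n = 3 each). The log2 fold change was -1.56 with an SE of 0.28, or 2.94-fold lower, and passed edgeR's quasi-likelihood test with Benjamini-Hochberg adjustment (adjusted p = 0.00196).

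miR-181b-5p, the member tied to NF-kappaB, stood at 134, 136 and 147 CPM with high glucose, against 237, 228 and 269 CPM with low glucose. These groups did not overlap either, and its replicates lay closer together than those of miR-181a-5p. It averaged 139 ± 7.42 CPM with high glucose, against 244 ± 21.5 CPM with low glucose (SD, n = 3 each). The log2 fold change was -0.81 with an SE of 0.22, or 1.76-fold lower (adjusted p = 0.0132 in edgeR). This call is less firm: it was lost in edgeR without low glucose replicate 2 (adjusted p = 0.0799) and without a filter on low counts (adjusted p = 0.187).

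**Figure D1:**
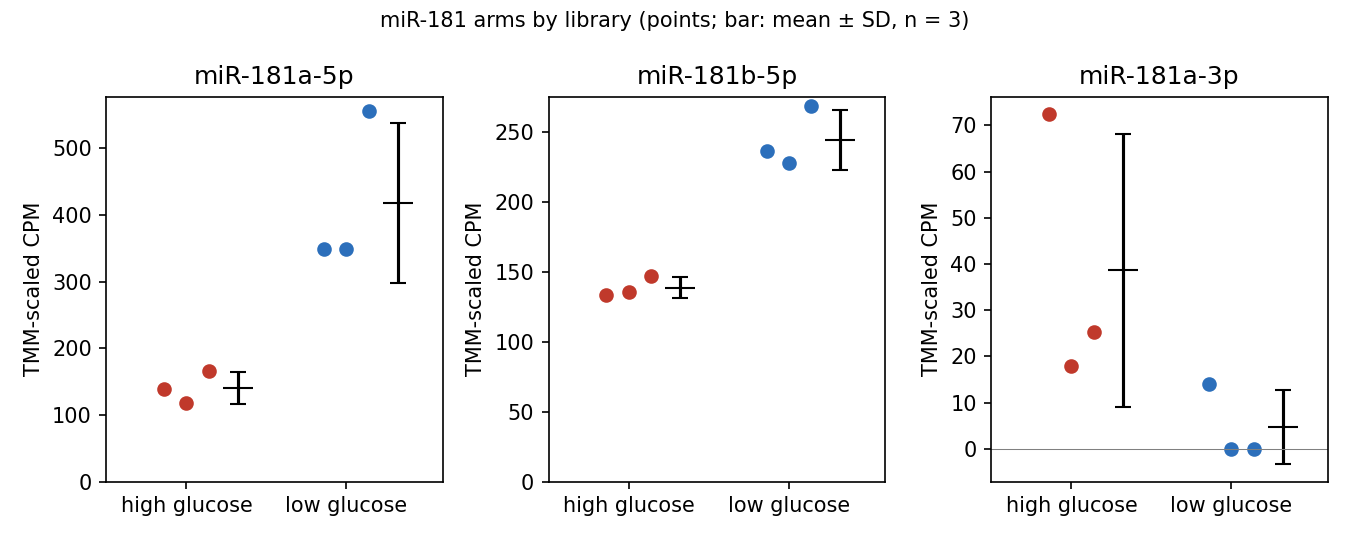
TMM-scaled CPM of miR-181a-5p, miR-181b-5p and miR-181a-3p in each library (points: replicates 1 to 3 from left to right), high glucose left and low glucose right, with the mean ± SD of 3 libraries as a bar beside the points. Both 5p arms are lower in all 3 high glucose libraries, while miR-181a-3p has higher CPM there and is listed at 0 in low glucose replicates 2 and 3.

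The raw counts behind these levels were small and ran the other way, since the high glucose libraries are deeper. miR-181a-5p had 134, 144 and 203 counts in high glucose and 50, 52 and 62 in low glucose. miR-181b-5p had 129, 166 and 180 counts in high glucose and 34, 34 and 30 in low glucose. The falls therefore are falls in the share of the library. Both members together made up 0.0273%, 0.0242% and 0.0283% of the counts in high glucose and 0.0679%, 0.0581% and 0.0803% in low glucose.

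Among all 297 tested arms 22.6% were called lower in high glucose and 41.4% higher, so 2 of 2 tested members called lower is a count too small to set the family apart. In 25.9% of the tested arms all high glucose libraries lay below all low glucose libraries. Over all tested arms the log2 fold change had a median of 0.68, and 10.8% of them had a lower value than miR-181a-5p and 23.6% a lower one than miR-181b-5p. Upper quartile scaling moved that median by -0.56, total-count scaling by -0.11 and RLE scaling by -0.12. With all libraries thinned to 114497 reads in 20 draws, 64 to 77 arms were called higher and 53 to 67 lower. The first draw had the most higher and the fewest lower. In that first draw 172 arms were tested and their median was 0.41. It was 0.30 to 0.44 without each high glucose library and 0.99 to 1.05 without each low glucose library. Relative to the median of each fit, miR-181a-5p was at -2.24 with TMM and -2.25 with upper quartile scaling, and miR-181b-5p at -1.50 and -1.52. Scaling moves all arms nearly alike, so these distances could hardly change with it. In the first thinned draw miR-181a-5p was at -1.81 and miR-181b-5p at -1.65, and these distances are for that draw only. Its log2 fold changes were -1.40 for miR-181a-5p and -1.24 for miR-181b-5p. Over all 20 draws the median log2 fold changes were -1.62 and -1.03, so the first draw shows the members closer together than these medians. Without each library the distance from the median was -2.60 to -1.80 for miR-181a-5p and -1.81 to -1.16 for miR-181b-5p. By mean level miR-181a-5p ranked 136 of 932 arms in high glucose and 88 in low glucose, and miR-181b-5p 138 in high glucose and 107 in low glucose.

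**Figure D2:**
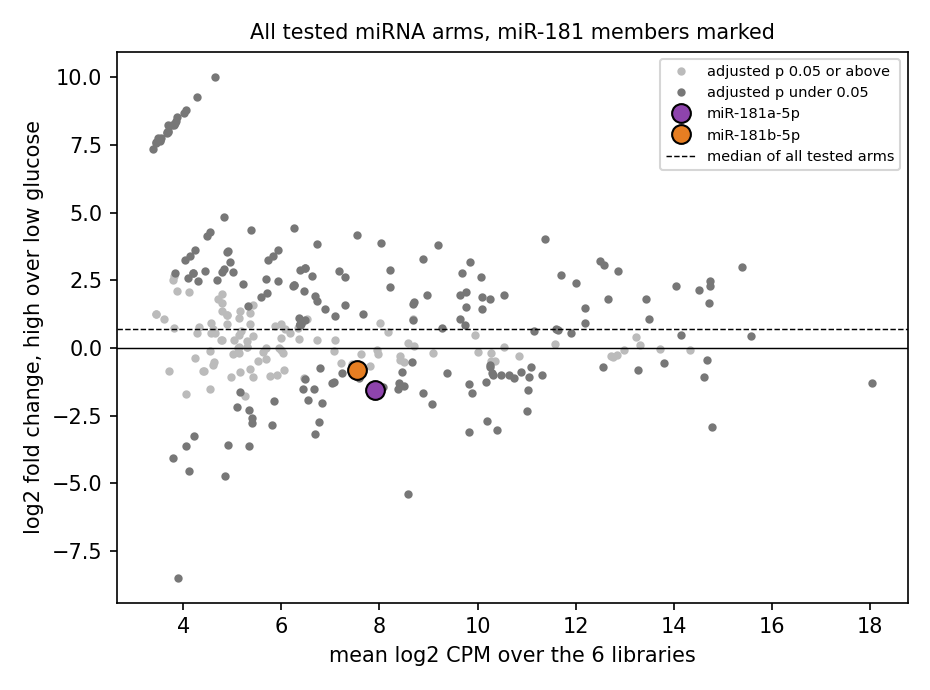
Log2 fold change of high over low glucose (vertical) against mean log2 CPM over the 6 libraries (horizontal) for the 297 tested arms, darker where the adjusted p was under 0.05. miR-181a-5p at -1.56 and miR-181b-5p at -0.81 lie below 0 and further below the dashed median of 0.68.

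The members were compared with each other inside each library, where scaling between libraries has no part. The ratio of miR-181b-5p to miR-181a-5p counts was 0.963, 1.15 and 0.887 in high glucose and 0.680, 0.654 and 0.484 in low glucose. In high glucose the ratio lay on both sides of 1, and miR-181a-5p exceeded miR-181b-5p in every low glucose library. On the log2 scale the ratio averaged -0.0077 ± 0.19 with high glucose, against -0.74 ± 0.27 with low glucose (SD, n = 3 each), a difference of 0.73 (exact two-sided permutation test, p = 0.1, also 0.1 adjusted over the 2 ratios examined). With 3 against 3 libraries 0.1 is the smallest p this test can give, so it cannot pass 0.05.

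The other arm of miR-181a had higher CPM in high glucose, but at equal depth only high glucose replicate 1 lay above all 3 low glucose libraries. miR-181a-3p, the strand from the other side of the hairpin, had 70, 22 and 31 counts in high glucose and 2, 0 and 0 in low glucose, or 72.5, 18 and 25.4 CPM with high glucose, against 13.9, 0 and 0 CPM with low glucose. High glucose replicate 1 carried most of it. In total 123 counts in high glucose stood against 2 in low glucose, a scaled ratio of 7.29 with an exact 95% binomial interval of 1.98 to 60.9 that covers counting error only. The arm was too low to be tested with all 6 libraries. When arms averaging at least 10 CPM were kept instead, its adjusted p in edgeR was 0.0785, and with every arm kept 0.111. Leaving out low glucose replicate 1, the only low glucose library that lists it, brought the adjusted p to 0.0419, and leaving out low glucose replicate 2 or 3 gave 0.166 and 0.146. Its mean level in high glucose corresponds to 4.31 to 5.76 reads in a low glucose library. With all libraries thinned to 114497 reads in 20 draws, it averaged 7.6, 0.9 and 1.35 counts in high glucose and 1.5, 0 and 0 in low glucose. High glucose replicates 2 and 3, listed in 9 and 11 of the 20 draws, then lay below low glucose replicate 1, listed in 15.

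Of those counts, 51, 22 and 31 in high glucose and 2, 0 and 0 in low glucose came from the hairpin rno-mir-181a-1. All its listed 3p sequences ended at the annotated end or 1 base before it. The 21 nt form was listed in all 3 high glucose libraries, with 40, 11 and 9 counts, and in none of the low glucose libraries. Those are shallower and leave out sequences under 2 reads, so its level there cannot be told from this absence.
miR-181a-1-3p, 21 nt: aCCATCGAccgttgattgtac
rno-mir-181a-2 gave 19 counts on that side, all in high glucose replicate 1. Of these, 9 were a 22 nt form of miR-181a-2-3p, and 10 were a 17 nt piece with 1 mismatch at positions 53 to 69, which spans the end of miR-181a-5p at position 61 and the start of the loop, and counts as 3p only because its centre lies past the middle of the hairpin.

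The 3p share of miR-181a counts was 34.3%, 13.3% and 13.2% in high glucose and 3.85%, 0% and 0% in low glucose. The 95% Wilson intervals were 28.1 to 41.1%, 8.92 to 19.3% and 9.49 to 18.2% in high glucose, and 1.06 to 13.0%, 0 to 6.88% and 0 to 5.83% in low glucose, for counting error only. The share averaged 20.3% ± 12.2 with high glucose, against 1.28% ± 2.22 with low glucose (SD, n = 3 each; exact permutation p = 0.1, the smallest possible). The difference of 19.0 points was 12 points without high glucose replicate 1, and 14.3 points with counts averaged over the thinned draws. With rno-mir-181a-1 alone on the 3p side the share averaged 18% ± 8.27 with high glucose, against 1.28% ± 2.22 with low glucose. The direction was shared by other miRNAs: of 49 annotated miRNAs with both arms listed and at least 50 counts in every library, 26.5% had a higher minor arm share in all 3 high glucose libraries and 7 of the 49 a lower one. The median difference was 0.118 points, and miR-181a ranked 4 of 49 from the highest. These 49 shares and the rank are for counts as deposited, not at equal depth.

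The remaining arms were traces. miR-181b-3p had 13 counts in high glucose replicate 1 and 0 elsewhere, in 2 fragments of 17 and 19 nt. miR-181c-3p had 7 counts in high glucose replicate 1 and 0 elsewhere, all in 1 sequence of 21 nt. These are the only counts of rno-mir-181c, and its 5p arm was not listed. Their mean levels in high glucose correspond to 0.501 to 0.669 reads of miR-181b-3p and 0.270 to 0.360 reads of miR-181c-3p in a low glucose library, so a difference was not detectable at this depth.

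The forms of miR-181a-5p were shorter on average in every high glucose library. The full 23 nt strand and a strand 2 bases shorter at the 3′ end were the main forms, and they are printed with the seed in capitals because the seed is the same in both.
miR-181a-5p, 23 nt: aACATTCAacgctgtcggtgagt
miR-181a-5p, 21 nt: aACATTCAacgctgtcggtga
The 21 nt form had 38, 60 and 56 counts in high glucose and 6, 4 and 6 in low glucose, which is 28.4%, 41.7% and 27.6% of the arm in high glucose and 12%, 7.69% and 9.68% in low glucose. The exact 23 nt sequence, without mismatched forms of that length, made up 58.2%, 34.7% and 25.6% in high glucose and 52.0%, 53.8% and 64.5% in low glucose, and here the groups overlapped (39.5% ± 16.8 with high glucose and 56.8% ± 6.76 with low glucose, SD, n = 3 each; exact permutation p = 0.3, adjusted over 4 measures 0.6). Taking every form of 21 nt or shorter, the share was 38.8%, 65.3% and 54.2% in high glucose and 12%, 7.69% and 9.68% in low glucose. A 20 nt form, with 14, 16 and 10 counts in high glucose, was not listed in low glucose. Sequences with so few counts could fall under the limit of 2 reads in the shallower low glucose libraries.

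The mean length of miR-181a-5p sequences was 22.1, 21.5 and 22.0 nt in high glucose and 23.5, 23.7 and 23.6 nt in low glucose. The groups did not overlap, with means of 21.8 ± 0.338 nt for high glucose and 23.6 ± 0.0980 nt for low glucose (SD, n = 3 each; exact permutation p = 0.1, the smallest possible, and 0.4 adjusted over the 4 measures). The difference was -1.75 nt. With sequences of 25 nt or shorter only it was -1.25 nt, an alternative chosen after the data were seen.

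Part of the longer mean in low glucose came from a 31 nt sequence that begins at the 5′ end of miR-181a-5p and runs on into the loop of rno-mir-181a-1. Only this hairpin holds it, so it also separates the 2 hairpins that share the mature strand. The capitals mark the bases beyond the mature end.
rno-mir-181a-1, positions 15 to 45: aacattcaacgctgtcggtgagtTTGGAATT
It had 0, 0 and 13 counts in high glucose and 4, 6 and 4 in low glucose. All 3 low glucose libraries listed it, and only replicate 3 in high glucose. These counts are few, and no test was made.

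**Figure D3:**
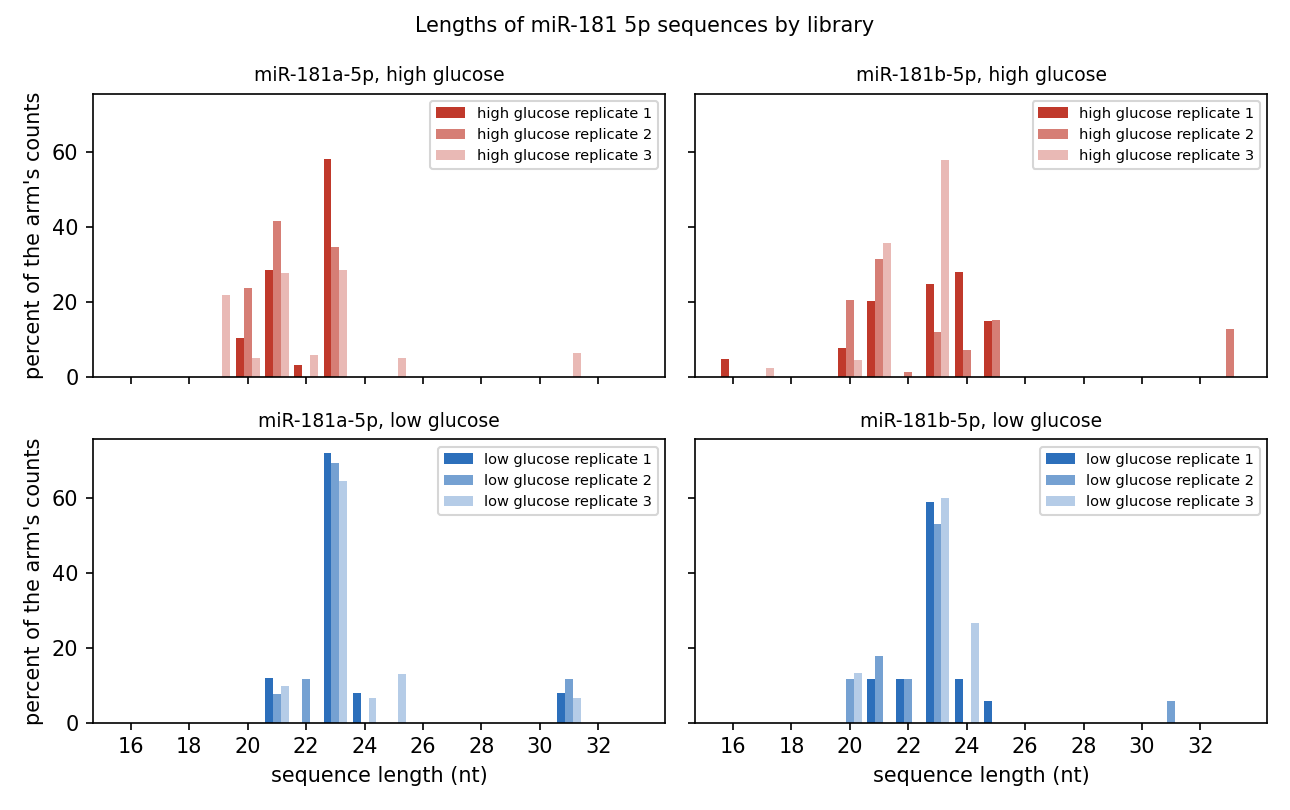
Percent of the counts of miR-181a-5p (left) and miR-181b-5p (right) at each sequence length in nt, in high glucose (top) and low glucose (bottom), with a bar for each library. In high glucose 38.8 to 65.3% of miR-181a-5p was 21 nt or shorter, against 7.69 to 12% in low glucose, where 23 nt dominates.

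Mean lengths of other arms differed in both directions. Of the 85 arms with at least 50 counts in every library, 36.5% had a shorter mean length in all 3 high glucose libraries and 17 of the 85 a longer one, and the median difference was -0.07 nt. miR-181a-5p had the largest shortening of the 85 by mean difference, ahead of a predicted arm at -0.96 nt and miR-27b-3p at -0.87 nt. It also held the largest shortening with sequences of 25 nt or shorter only. With 50 to 62 counts per low glucose library it is near the lower limit of the 85 arms, where mean lengths are least precise.

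**Figure D4:**
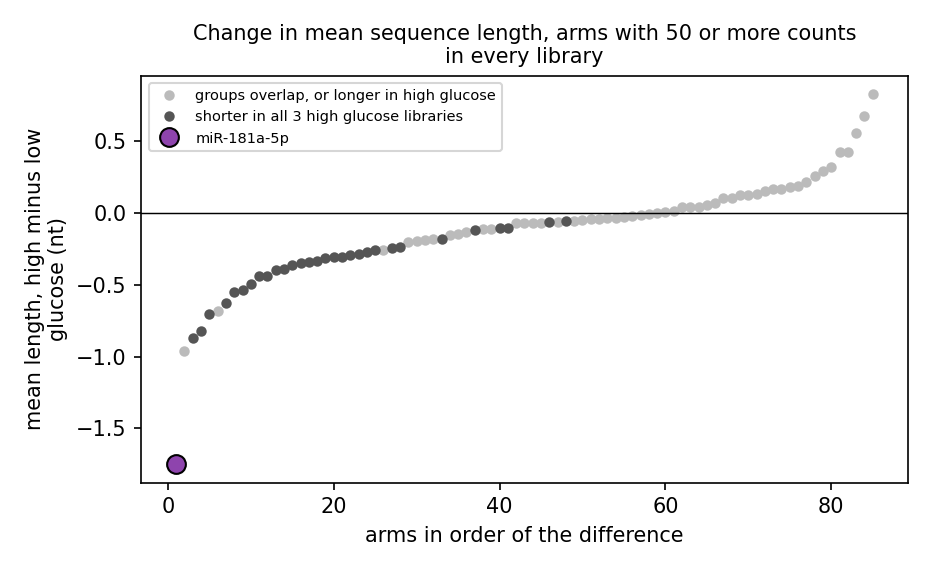
Difference of mean sequence length, high minus low glucose, in nt, for the 85 arms with at least 50 counts in every library, in rising order. Dark points were shorter in all 3 high glucose libraries, and miR-181a-5p, at -1.75 nt, is the lowest point.

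miR-181b-5p fell short of 50 counts in low glucose, so its forms are described without a test. Forms of 21 nt or shorter made up 32.6%, 51.8% and 42.2% in high glucose and 11.8%, 29.4% and 13.3% in low glucose, and the groups did not overlap. The low glucose shares rest on 34, 34 and 30 counts of the arm. For neither member is this share set beside that of all arms. The mean length did overlap, at 22.6, 23.4 and 22.0 nt in high glucose and 22.9, 22.6 and 22.9 nt in low glucose. High glucose replicate 2 stood highest, with 12.7% of its miR-181b-5p in sequences of 26 nt or longer. The exact 23 nt sequence varied widely, at 20.2%, 12% and 53.3% in high glucose and 47.1%, 29.4% and 60.0% in low glucose.

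The start of the mature strand was fixed in miR-181a-5p, with 0% of the counts shifted in all 6 libraries. In miR-181b-5p shifted starts made up 20.2%, 1.20% and 2.22% in high glucose and 0% in all low glucose libraries. Most of the first value was a form with 1 more base at the 5′ end, 20 counts in high glucose replicate 1 and 0 elsewhere. It is shown because its bases 2 to 8 differ from the family seed.
miR-181b-5p, 24 nt: cAACATTCattgctgtcggtgggt
All counts in the files whose bases 2 to 8 are the family seed belonged to the family: 237, 308 and 379 in high glucose and 84, 86 and 92 in low glucose. Other seeds within the 5p arms came to 26, 2 and 4 counts in high glucose and 0 in every low glucose library. Apart from the 24 nt form, these counts came from pieces that begin inside the mature strand of miR-181b-5p. They were 16 nt with 6 counts in replicate 1, 22 nt with 2 in replicate 2 and 17 nt with 4 in replicate 3. Low glucose held 34, 34 and 30 counts of miR-181b-5p. Shifted shares as low as in high glucose replicates 2 and 3 could go unlisted there.

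A mismatched last base was found in 0%, 12.5% and 5.91% of miR-181a-5p in high glucose and in 20%, 15.4% and 0% in low glucose. The groups overlapped (6.14% ± 6.25 with high glucose and 11.8% ± 10.5 with low glucose, SD, n = 3 each; exact permutation p = 0.5, adjusted 0.667). In all, 38 different sequences of the family were listed, 8 to 20 in a library. For miR-181a-5p 2 of 12 sequences were found in all 6 libraries, and for miR-181b-5p 1 of 19, while 10 of the 19 were found in 1 library only.

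Other miRNAs of the pathways that the family is known for were counted from lists chosen with earlier results of these data known. Of the miRNAs that act in lymphoid and myeloid cells, 7 of 8 were listed and 6 tested, with 1 higher and 1 lower in high glucose, beside 41.4% higher and 22.6% lower of all tested arms, and a median log2 fold change of -0.58. The higher one was miR-92a-3p, at 987 ± 180 CPM with high glucose, against 254 ± 40.6 CPM with low glucose (SD, n = 3 each; adjusted p = 0.000354 in edgeR). miR-17-5p was the lower one, at 83.1 ± 14.1 CPM with high glucose, against 202 ± 62.7 CPM with low glucose (SD, n = 3 each; adjusted p = 0.00756 in edgeR). For miR-146a-5p, a brake on NF-kappaB signalling, the log2 fold change was -0.31 and did not pass (adjusted p = 0.153 in edgeR).

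Among 7 tested miRNAs linked to NF-kappaB and inflammation, 1 was higher and 3 were lower (all tested arms: 41.4% higher, 22.6% lower), with a median of -0.31. miR-16-5p had a log2 fold change of -1.58 (adjusted p = 0.00334 in edgeR), miR-21-5p -1.28 (adjusted p = 0.000948) and miR-146b-5p -0.46 (adjusted p = 0.0471), and the higher one was miR-125b-5p. Among 10 tested miRNAs tied to nerve injury or Schwann cells, 3 were higher and 3 lower, beside 41.4% and 22.6% of all tested arms, with a median of -0.62. The largest changes there were those of miR-222-3p, 3.05 on the log2 scale, and miR-140-5p, at 27.5 ± 6.11 CPM with high glucose, against 108 ± 21.6 CPM with low glucose (SD, n = 3 each; adjusted p = 0.00464 in edgeR). All 3 medians lay below the 0.68 of all tested arms, a value that was 0.41 in the first thinned draw. The lists share members, among them miR-146a-5p and miR-21-5p, so the medians are not separate observations.

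The arms whose pattern over the 6 libraries was most like that of the summed miR-181 5p arms were taken by Pearson's r of log2 CPM among all other tested arms. They were a predicted hairpin numbered 7031 on chromosome 10 (r = 0.986), miR-451-5p (0.978), miR-450b-5p (0.978), miR-22-5p (0.975) and a predicted hairpin numbered 36766 on chromosome 8 (0.967). All 5 were lower in high glucose, the predicted one on chromosome 8 being listed at 0 there, and the 6 points share their libraries and the gap between the groups. miR-450b-5p averaged 952 ± 41.6 CPM with high glucose, against 1542 ± 185 CPM with low glucose (SD, n = 3 each). miR-22-5p averaged 195 ± 17.1 CPM with high glucose, against 559 ± 77.1 CPM with low glucose (SD, n = 3 each). miR-451-5p, which belongs to the erythroid markers, averaged 316 ± 49.4 CPM with high glucose, against 2700 ± 1085 CPM with low glucose (SD, n = 3 each).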

How the data were processed

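The authors' deposited files give raw counts, per the file headers: the reads of each distinct sequence on each hairpin, with its place and mismatches. The positions and lengths in those files are other deposited values, in nt. Novoalign 3.02.12 and cutadapt 1.9.3 appear in the submitters' processing notes, with no role stated. Neither the genome build nor the hairpin release is given in the sources used, and genomic positions are left out. A sequence that lies on several hairpins has its reads divided among them and rounded, which raises small counts slightly.

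Counts were summed per mature arm, with hairpin copies joined. All 932 arms entered edgeR 4.0.16 (R 4.3.3): TMM scaling, filterByExpr at its default minimum of 10, a robust quasi-likelihood fit and Benjamini-Hochberg adjustment at 0.05 over the 297 tested arms. The log2 CPM used a prior count of 2. DESeq2 1.42.0 and limma 3.58.1 were alternatives, and so were other scalings and filters, thinned counts, a replicate block and fits without each library. For shares and ratios, exact permutation tests (two-sided) were run in Python 3.11.15. Because low glucose libraries had 0 counts of miR-181a-3p, its share replaced the planned log ratio. The script was tested on simulated data. Each library was also thinned to 114497 reads in 20 seeded draws, keeping sequences with at least 2 reads. The count of calls after thinning is given for the first draw and as a range over all 20 draws.

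The members, lists and rules were chosen with earlier results of these data known. By rule, the text names all family arms, the 5 arms most like them, and from each list the 2 most abundant and 2 most changed miRNAs. miR-27b-3p, miR-125b-5p and miR-219a-3p were named outside this rule, after their values were seen. Without molecular identifiers, the intervals express counting error alone. Mature sequences are from RefSeq (GRCr8). Of the 5 listed hairpins, 3 were in its table and had the same sequence as in the files.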

Additional observations from a re-analysis of the deposited data

How the results depend on the processing

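The fall of miR-181a-5p kept its direction and its call in all 20 alternatives, with log2 fold changes from -2.13 to -1.33, and from -1.71 to -1.33 without each library in turn. miR-181b-5p kept its direction in all 20 and its call in 16. The call was lost without a filter on low counts (-0.74), with its mature sequence only (-1.45, adjusted p = 0.0853, chosen after the data were seen) and without low glucose replicate 2 (-0.71), the range without each library being -0.88 to -0.71; the cause was not tested. The replicate block gave -0.81 (edgeR adjusted p = 0.0525). Whether equal replicate numbers pair the libraries could not be settled. Same-numbered libraries had correlations of 0.045, -0.00071 and -0.028 in their deviations from the group means, which cannot exclude a pairing with 3 libraries per group. In 20 draws thinned to the smallest library miR-181a-5p was called in 20 and miR-181b-5p in 14, with adjusted p up to 0.167. Over all arms, 123 were higher and 67 lower. Thinning left 77 higher and 53 lower of 172 tested in the first draw, the most higher and the fewest lower of the 20 draws. Over the 20 draws 64 to 77 were higher and 53 to 67 lower. In draws 13 and 19 more arms were lower than higher, 66 against 64 and 67 against 65. Without each library 79 to 117 were higher and 41 to 59 lower, the 79 without high glucose replicate 2 and the 41 without low glucose replicate 2. With upper quartile scaling 49.5% of the calls were higher, against 64.7% with TMM. The length difference of miR-181a-5p was -1.78 to -1.25 nt under 3 alternatives and -1.87 to -1.56 nt without each library. The difference of the log2 ratio of miR-181b-5p to miR-181a-5p was 0.58 to 0.82 without each library, and that of the 3p share of miR-181a 12 to 22.5 points. Averaged over the thinned draws they were 0.61 and 14.3 points. Low glucose depth limits all forms of the family, at 30 to 62 counts per 5p arm and library.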
